A study of Mus musculus with 6 samples.

Results

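Expression of 8 genes of the inward rectifier and ATP-sensitive potassium channels was followed in mouse heart: the pore genes Kcnj2, Kcnj12, Kcnj3, Kcnj5, Kcnj8 and Kcnj11, and the sulfonylurea receptor genes Abcc8 and Abcc9. They were taken by symbol from the first column of the deposited expression table, and 8 of 8 were found among its 24525 gene rows. RNA-seq of total RNA from whole heart gave 6 libraries from mice of 3 to 6 months. Replicates 4, 5 and 6 are labelled wild type (WT), with no further allele named. Replicates 7, 8 and 9 are labelled double knockout (DKO), with the genotype Mbnl1-/-; Mbnl2cond/cond; Myh6-Cre+/-. Mbnl1 is thus null in every cell, whereas Mbnl2 is removed where the Myh6 promoter drives Cre recombinase, in cardiomyocytes, so that vessel, stromal and blood cells of the heart keep it. The genes encode muscleblind-like RNA-binding proteins that direct alternative splicing and are held in nuclear foci in myotonic dystrophy. DKO replicate 7 carries WT in its genotype tag but DKO in its title and source name, and was placed by the latter.

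Inward rectifier channels pass potassium into a cell more easily than out of it, and so hold the resting potential of a heart muscle cell near the potassium equilibrium while letting the action potential run its course. Kcnj2 and Kcnj12 encode the pore subunits of the resting current IK1. Kcnj3 and Kcnj5 form the channel that acetylcholine and adenosine open through G-protein beta-gamma subunits, best known in atrium and sinoatrial node. ATP-sensitive (KATP) channels are built from a pore, Kcnj8 or Kcnj11, and a sulfonylurea receptor, Abcc8 or Abcc9, and open when the ATP of the cell falls. Ventricular muscle is known for the pairing of Kcnj11 with Abcc9, and vascular smooth muscle and pericytes for that of Kcnj8 with Abcc9.

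Abcc9, the receptor gene of both ventricular and vascular KATP channels, and Kcnj8, the vascular pore gene, were lower in the hearts labelled DKO. The other 6 genes did not pass the test. Abcc9 was at 62.7% of its WT level and Kcnj8 at 65.8%. Of the 8 genes, 2 were called lower and 0 higher (limma on log2(TPM + 1), Benjamini-Hochberg (BH) adjusted p under 0.05 over all 14541 genes tested), and the same 2 were the only ones with an unadjusted p under 0.05. Over all genes tested, 10.7% were called, 6.51% as higher and 4.22% as lower. The median log2 difference, DKO minus WT, was -0.21 over the 8 genes and 0.03 over all genes tested. All 8 genes passed the expression filter of at least 1 TPM in at least 3 libraries. TPM, the unit of the deposited table, is a transcript level corrected for transcript length and library total, so that levels of different genes can be set side by side. Values below are TPM, given as mean ± SD of n = 3 libraries per group, and a log2 difference is DKO minus WT as fitted on log2(TPM + 1), with its standard error (SE).

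The 6 libraries had totals between 999963 and 999991 TPM, and 14084 to 14623 genes reached 1 TPM; the depth of sequencing cannot be read from TPM. All 8 cardiomyocyte markers fixed for the check of tissue (Myh6, Actc1, Tnnt2, Tnni3, Ryr2, Pln, Actn2 and Ttn) were at 1 TPM or more in each library, with summed levels of 46430 to 49309 TPM in WT and 42540 to 45445 in DKO. Of these 8, Tnni3 and Ryr2 were called lower and Ttn higher. Mbnl1 was lower in each DKO library (102 to 108 against 145 to 161 TPM) and Mbnl2 higher (227 to 245 against 149 to 189 TPM). Both were called, with log2 differences of -0.55 and 0.49 (limma, BH adjusted p = 0.00673 and 0.0232). DKO 7, the library with the WT tag, had 102 TPM of Mbnl1 and 227 TPM of Mbnl2, outside the WT range for both. Gene sums can include reads from outside a deleted part and, for Mbnl2, from cells without Cre, so neither value checks the deletion. The cause of the higher Mbnl2 was not tested. Y-linked transcripts (Ddx3y, Uty, Kdm5d and Eif2s3y) summed to between 163 and 179 TPM in the WT libraries and DKO 9, and to 0.217 and 0.356 TPM in DKO 7 and DKO 8, so sex differs between the groups, and the channel genes are also given with a term for it. Separate animals are not named for the libraries, so p-values measure the spread between these libraries, which may be technical.

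**Figure D1:**
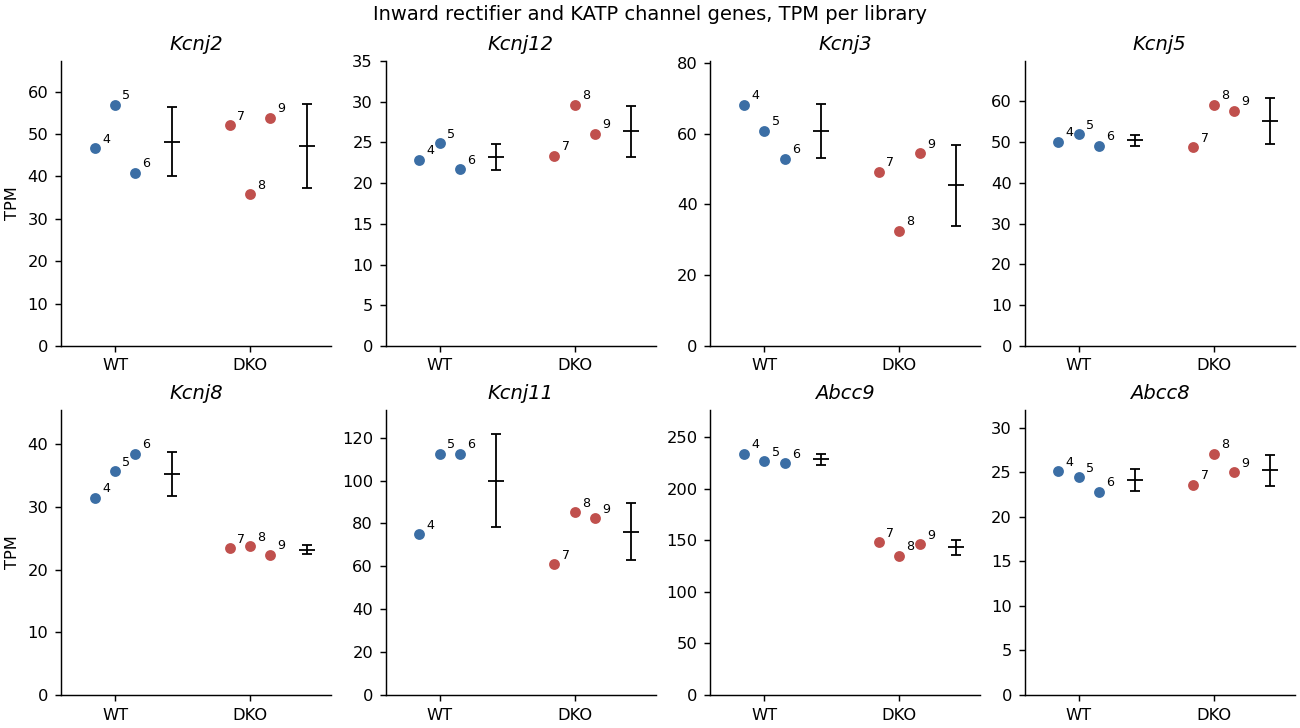
TPM of each gene in each library (points, with the replicate number; WT blue, DKO red), with mean ± SD of n = 3 beside them; each vertical axis starts at 0 and has its own scale. For Abcc9 and Kcnj8 the DKO points lie below the WT points, while in the other 6 panels the groups overlap.

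Abcc9 encodes SUR2, the regulatory receptor that senses magnesium-bound nucleotides and binds the channel openers; it lies on chromosome 6 (142587862 to 142702766, GRCm38). It stood at 234, 227 and 225 TPM in WT 4, WT 5 and WT 6, and at 148, 135 and 146 TPM in DKO 7, DKO 8 and DKO 9. The groups did not overlap, with 76.4 TPM between the lowest WT and the highest DKO library, and replicates of a group lay close together. The mean fell from 228 ± 5.00 to 143 ± 7.02 TPM, a log2 difference of -0.67 (limma, SE 0.06, BH adjusted p = 0.00352). The call held in each of the 6 fits that left out 1 library (limma, BH adjusted p from 0.0135 to 0.0173). It was lost with a term for Y-linked transcripts (-0.64; limma, BH adjusted p = 0.0611), which leaves DKO 9 as the DKO library against WT libraries of the same sex, and with replicate 7 counted as WT (-0.54; limma, BH adjusted p = 0.501). SUR2A and SUR2B, which differ in their last exon, share this gene, and a value per gene cannot tell them apart.

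Kcnj8 encodes Kir6.1, the pore subunit of the KATP channel in smooth muscle and pericytes, and lies beside Abcc9 (chromosome 6, 142564837 to 142571614). Its level was 31.5, 35.7 and 38.5 TPM in WT 4, WT 5 and WT 6, and 23.4, 23.8 and 22.4 TPM in DKO 7, DKO 8 and DKO 9. The groups did not overlap, and the DKO libraries lay within 1.39 TPM of each other. The mean fell from 35.2 ± 3.54 to 23.2 ± 0.720 TPM, a log2 difference of -0.58 (limma, SE 0.10, BH adjusted p = 0.0163). This call was near the threshold: it was lost without WT 5, WT 6, DKO 8 or DKO 9 (limma, BH adjusted p = 0.0515, 0.0546, 0.0525 and 0.052), with the term for Y-linked transcripts (-0.63; limma, BH adjusted p = 0.14) and with replicate 7 as WT (-0.44; limma, BH adjusted p = 0.502). Abcc9 and Kcnj8 were 2 of 8 genes whose groups did not overlap, which held for 33.0% of all genes tested; an exact permutation test gave p = 0.1 for each, the smallest two-sided value that 3 against 3 libraries allow.

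Abcc9 belongs to cardiomyocytes too, and both genes mark pericytes and smooth muscle cells; in whole heart fewer cells of a type and less RNA per cell cannot be told apart. The cardiomyocyte sum given above did not overlap between the groups and was lower in DKO. The lowest WT library had 46430 TPM and the highest DKO library 45445. The ratio of means of that sum, DKO over WT, was 0.928. Troponin I (Tnni3) fell from 7173 ± 254 to 5077 ± 102 TPM. Of the 8 markers, 5 had a log2 difference below 0 and 3 above 0. The ryanodine receptor (Ryr2) was at 756 ± 28.6 and 530 ± 55.9 TPM, while titin (Ttn) rose from 2162 ± 35.8 to 2626 ± 145 TPM. The sum of 8 ventricular markers (Myl2, Myl3, Irx4, Hey2, Irx5, Irx3, Lbh and Mpped2) overlapped, at 30441 to 32802 TPM in WT and 30862 to 34259 in DKO. All 10 pericyte markers (Pdgfrb, Rgs5, Cspg4, Higd1b, Notch3, Vtn, Ndufa4l2, Mcam, Steap4 and Cox4i2) were at 1 TPM or more in each library. Their summed level was 713 to 769 TPM in WT and 594 to 667 TPM in DKO, a ratio of means of 0.842, and 2 were called lower, Higd1b (21.9 ± 1.88 to 12.9 ± 1.94 TPM) and Steap4 (38.9 ± 1.83 to 29.1 ± 0.527 TPM). The 8 smooth muscle markers (Myh11, Acta2, Tagln, Cnn1, Smtn, Myocd, Lmod1 and Mylk), also at 1 TPM or more throughout, summed to 305 to 373 TPM in WT and 417 to 559 in DKO. That higher sum was carried by Acta2: the other 7 summed to 251 to 297 TPM in WT and 218 to 269 in DKO, and 6 of the 8 had a log2 difference below 0, with a median of -0.44. Acta2 (66.5 ± 11.1 to 228 ± 63.3 TPM) and Myocd (59.7 ± 8.95 to 94.5 ± 11.0 TPM) rose and Tagln fell (43.6 ± 6.61 to 24.1 ± 2.66 TPM), and Myh11, the myosin that defines smooth muscle, was 31.4 ± 7.45 and 18.6 ± 3.50 TPM (limma, BH adjusted p = 0.067). Of 8 endothelial markers 2 were lower and 0 higher (735 to 864 TPM summed in WT, 660.1 to 763 in DKO). Of 8 fibroblast markers 4 were higher and 0 lower (986 to 1016 TPM in WT, 1214 to 1524 in DKO). The 4 called were the collagens Col1a1, Col1a2 and Col3a1 and the matrix gene Lum. Pdgfra, Dcn, Dpt and Tcf21 were not called, with log2 differences of 0.08, 0.13, 0.16 and 0.50. The part of these shifts in the values of Abcc9 and Kcnj8 was not tested.

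The upstream sequence is shown for Abcc9 and Kcnj8 because they are neighbours that were both lower. In the RefSeq table of GRCm38.p6, 6 of the 8 genes have a window of 300 bases, 250 before and 50 after a transcript start; Kcnj11 and Abcc8 were not matched. The 250 bases before the start follow, 5′ to 3′ on the minus strand, chr6:142702275-142702524 for Abcc9, which has several starts, and chr6:142571615-142571864 for Kcnj8.
Abcc9: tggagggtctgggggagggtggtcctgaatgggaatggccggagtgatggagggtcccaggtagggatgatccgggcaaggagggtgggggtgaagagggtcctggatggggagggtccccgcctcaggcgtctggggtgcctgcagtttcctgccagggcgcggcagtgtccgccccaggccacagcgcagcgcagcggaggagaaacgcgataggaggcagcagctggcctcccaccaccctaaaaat
Kcnj8: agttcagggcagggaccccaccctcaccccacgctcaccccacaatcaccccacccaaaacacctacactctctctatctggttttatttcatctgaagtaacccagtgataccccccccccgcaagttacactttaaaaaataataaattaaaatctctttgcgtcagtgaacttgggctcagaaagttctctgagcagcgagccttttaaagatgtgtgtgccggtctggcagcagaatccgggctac
The stretch before Abcc9 was 66.8% G and C, that before Kcnj8 49.2%, and the median over all 32851 windows was 52.4%. Capitals would mark a match, on either strand, to TATAAA, to the CCAAT box, to the E-box CACGTG, to the forkhead sequence GTAAACA or to the nuclear receptor core AAGGTCA; there was none in either window. These are in 13.6%, 37.4%, 7.15%, 3.65% and 4.72% of all windows. Among the other 4 genes with a window, CCAAT was found in those of Kcnj2 and Kcnj3 and CACGTG in that of Kcnj2. The absence of a match says only that these letters are not in the window.

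The KATP genes sit in 2 pairs of a pore and a receptor gene. Kcnj8 and Abcc9 are 16248 bases apart on chromosome 6, and Kcnj11 (46097123 to 46100952) and Abcc8 (46104523 to 46180039) are 3571 bases apart on chromosome 7. Around Abcc9 and Kcnj8, 7 other tested genes lie within 250 kb, of which 0 were called by limma and 0 had an unadjusted p under 0.05. Among them, Ldhb, the heart-type lactate dehydrogenase subunit, averaged 1885 ± 86.7 (WT) and 1823 ± 110 TPM (DKO), and Cmas, which activates sialic acid, 39.3 ± 3.86 and 38.1 ± 4.19 TPM. Around Kcnj11 and Abcc8, 1 of 7 was called, Tmem143, which was lower (89.6 ± 5.15 to 44.3 ± 4.27 TPM). There 2 had an unadjusted p under 0.05 by limma, Tmem143 and Ush1c. Ush1c averaged 8.12 ± 7.48 (WT) and 29.2 ± 4.85 TPM (DKO), a log2 difference of 2.07 (limma, BH adjusted p = 0.0679).

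Kcnj11 encodes Kir6.2, the pore of the KATP channel of the ventricular muscle membrane. It had 75.0, 113 and 112 TPM in WT 4, WT 5 and WT 6, and 60.9, 85.3 and 82.3 TPM in DKO 7, DKO 8 and DKO 9. WT 4 lay below DKO 8 and DKO 9, so the groups overlapped. The means were 100.0 ± 21.7 and 76.2 ± 13.3 TPM, a log2 difference of -0.38 (limma, SE 0.20, 95% interval -0.85 to 0.09, BH adjusted p = 0.271). The interval reaches beyond the difference of Kcnj8, so these libraries do not show that the 2 pores behaved differently. Without WT 4 the difference was -0.57 (limma, BH adjusted p = 0.0938), and without DKO 7 it was -0.23 (limma, BH adjusted p = 0.525). It was -0.25 with the term for Y-linked transcripts and -0.06 with replicate 7 as WT (limma, BH adjusted p = 0.744 and 0.949).

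Abcc8 encodes SUR1, the sulfonylurea receptor known from pancreatic beta cells and neurons and, in mouse, from atrial muscle. It was 25.1, 24.4 and 22.8 TPM in WT 4, WT 5 and WT 6, and 23.6, 27.1 and 25.0 TPM in DKO 7, DKO 8 and DKO 9. All 6 libraries lay in one narrow band, with means of 24.1 ± 1.20 and 25.2 ± 1.75 TPM and a log2 difference of 0.06 (limma, SE 0.09, 95% interval -0.16 to 0.28, BH adjusted p = 0.726), which was 0.05 with the term for Y-linked transcripts. Of 9 neuronal markers summed, 4 (Th, listed at 0 in all 6 libraries, Phox2a, Prph and Snap25) stayed under 1 TPM in each library, whereas Uchl1 was 9.28 ± 2.20 and 16.2 ± 3.46 TPM and Stmn2 5.73 ± 1.64 and 6.01 ± 0.644 TPM. Their sum was 18.8 to 23.0 TPM in WT and 24.0 to 29.3 TPM in DKO, without overlap. That higher sum was carried by Uchl1. Uchl1 had 7.00, 11.4 and 9.45 TPM in WT 4, WT 5 and WT 6, and 19.5, 12.6 and 16.5 TPM in DKO 7, DKO 8 and DKO 9. Of the 4 tested markers 0 were called by limma, 3 had a log2 difference above 0 and 1, Dbh, below 0. Dbh was 3.43 ± 0.493 and 0.946 ± 1.13 TPM. The part of neurons in the values of Abcc8 was not tested.

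**Figure D2:**
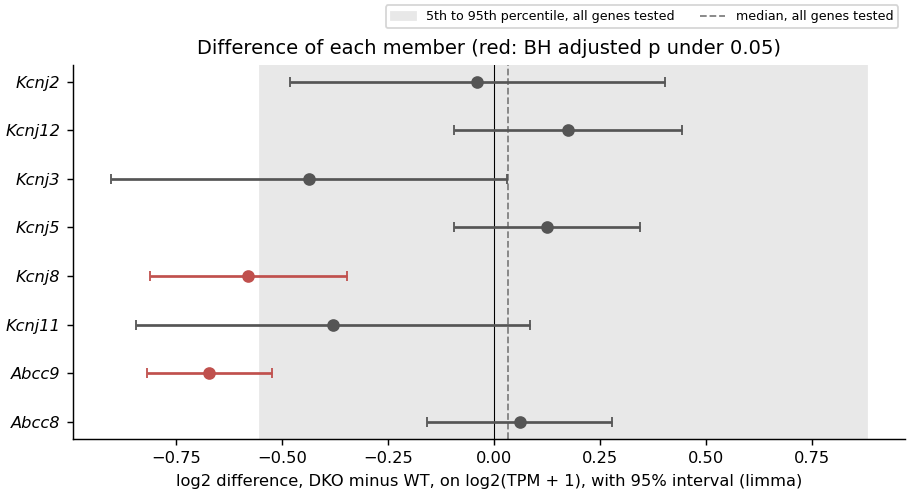
Difference of each gene, DKO minus WT, in log2(TPM + 1), with the 95% interval from limma (red, BH adjusted p under 0.05); the grey band spans the 5th to 95th percentile of all 14541 genes tested (-0.55 to 0.88) and the dashed line is their median (0.03). Abcc9 at -0.67 and Kcnj8 at -0.58 lie below the band, and the intervals of the other 6 genes include 0.

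Relative to Abcc8, Abcc9 was lower in each DKO library than in any WT library. Abcc9 over Abcc8 was 9.31, 9.28 and 9.85 in WT 4, WT 5 and WT 6, and 6.28, 4.99 and 5.85 in DKO 7, DKO 8 and DKO 9. As a share of the summed TPM of both receptors, Abcc9 made up 90.5 ± 0.289% in WT and 85.0 ± 1.52% in DKO. The log2 ratio differed by -0.74 between the groups (exact permutation p = 0.1, the smallest possible; BH adjusted p = 0.25 over 5 ratios). The receptor sum, which is mostly Abcc9, was 247 to 259 TPM in WT and 162 to 172 TPM in DKO.

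The proportion of the 2 KATP pores overlapped between the groups. Kcnj11 held 70.4%, 75.9% and 74.5% of the summed TPM of Kcnj8 and Kcnj11 in WT 4, WT 5 and WT 6, and 72.2%, 78.2% and 78.6% in DKO 7, DKO 8 and DKO 9 (exact permutation p = 0.3). Abcc9 exceeded that pore sum in each library, by a ratio of 2.20, 1.53 and 1.49 in WT and 1.76, 1.24 and 1.40 in DKO, with the groups overlapping (exact permutation p = 0.4; BH adjusted p = 0.5). WT 4 had the highest ratio and, in the denominator, the lowest Kcnj11 among WT libraries. Abcc9 over Kcnj8, the neighbouring pair, was 6.54 ± 0.820 in WT and 6.19 ± 0.444 in DKO.

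**Figure D3:**
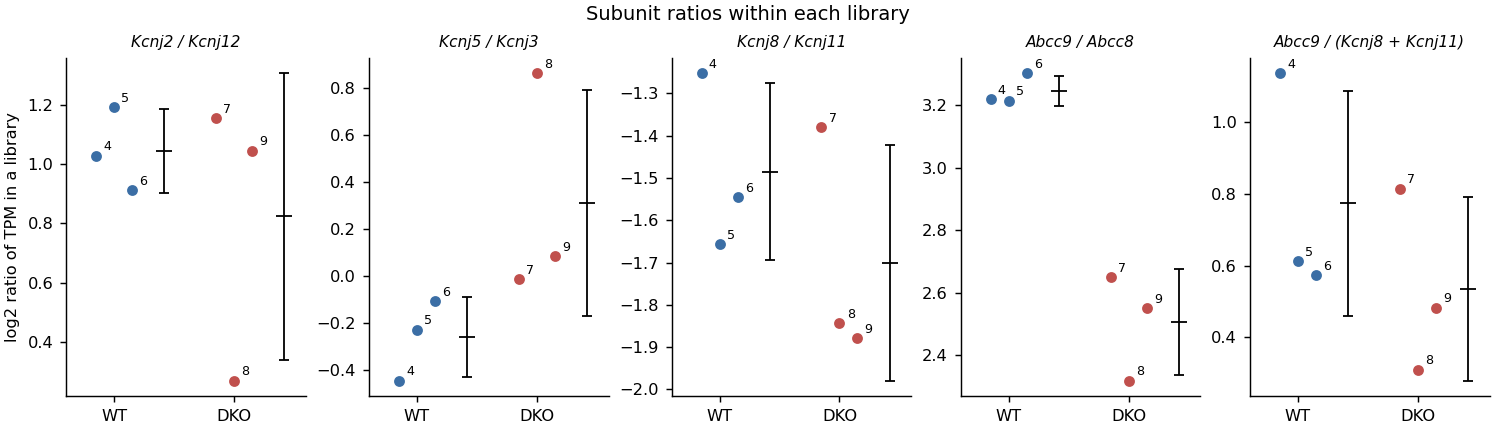
Log2 ratio of the TPM of subunits within each library (points with replicate numbers, WT blue and DKO red; mean ± SD of n = 3 beside them; each panel has its own scale, which does not start at 0). Abcc9 to Abcc8 was lower in the DKO libraries and Kcnj5 to Kcnj3 higher, each without overlap; the other 3 ratios overlapped.

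Kcnj3 encodes Kir3.1, a subunit of the acetylcholine-activated channel that needs a partner to form a working pore, and lies on chromosome 2 (55411798 to 55598145). It had 68.2, 60.9 and 52.9 TPM in WT 4, WT 5 and WT 6, and 49.2, 32.6 and 54.4 TPM in DKO 7, DKO 8 and DKO 9. DKO 9 lay above WT 6, and DKO 8 stood well below every other library. The log2 difference was -0.44 (limma, SE 0.20, 95% interval -0.90 to 0.03, BH adjusted p = 0.213) and became -0.22 without DKO 8 (limma, BH adjusted p = 0.375) and -0.15 with the term for Y-linked transcripts (limma, BH adjusted p = 0.836). Its partner Kcnj5, which encodes Kir3.4 (chromosome 9, 32314706 to 32344380), had 50.1, 52.0 and 49.1 TPM in WT, and 48.8, 59.2 and 57.8 TPM in DKO, in the same order of replicates. DKO 7 was the lowest of all 6 and DKO 8 the highest, and the log2 difference was 0.13 (limma, SE 0.09, BH adjusted p = 0.442), or 0.19 with the term for Y-linked transcripts (limma, BH adjusted p = 0.567).

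The share of Kcnj5 in this pair was higher in each DKO library. Kcnj5 made up 42.4%, 46.1% and 48.1% of their summed TPM in WT 4, WT 5 and WT 6, and 49.8%, 64.5% and 51.5% in DKO 7, DKO 8 and DKO 9. The groups did not overlap, although DKO 7 exceeded WT 6 by little and DKO 8 stood apart (exact permutation p = 0.1 for the share and for the log2 ratio, BH adjusted p = 0.25 over 5 ratios). Without DKO 8 the log2 ratio of Kcnj5 to Kcnj3 differed by 0.30, against 0.57 with all 6 libraries. Atrial muscle is rich in both genes, and the atrial marker sum (Nppa, Sln, Myl4, Myl7, Bmp10, Nr2f2, Nr2f1, Dkk3 and Stard10) varied widely, at 6848, 434 and 1764 TPM in WT 4, WT 5 and WT 6 and 2509 to 4231 TPM in DKO. Of these 9 markers 8 were at 1 TPM or more in each library and Bmp10 was listed at 0 in WT 6. The DKO sums were mostly Nppa, the natriuretic peptide, at 2188, 3855 and 3789 TPM; the other 8 summed to 2632, 192 and 808 TPM in WT 4, WT 5 and WT 6 and to 321, 373 and 442 TPM in DKO 7, DKO 8 and DKO 9. Of the 9, 8 had a log2 difference below 0, with a median of -0.78, and 1, Nr2f2, was called lower. WT 4, with the highest of these sums, had the highest Kcnj3, while WT 5, with the lowest, had the next highest. Of 7 sinoatrial and conduction markers (Hcn4, Shox2, Isl1, Tbx3, Cacna1d, Gjc1 and Cacna1g), 3 were called higher and 0 lower: the pacemaker channel Hcn4 (6.92 ± 1.06 to 12.5 ± 2.50 TPM), the connexin Gjc1 (29.7 ± 5.85 to 51.8 ± 4.31 TPM) and the T-type calcium channel Cacna1g (6.12 ± 1.26 to 24.7 ± 9.20 TPM). The sum of the 7 was 54.9 to 69.5 TPM in WT and 95.5 to 123 TPM in DKO, without overlap. That higher sum was carried mostly by Gjc1 and Cacna1g. Tbx3 averaged 15.1 ± 0.994 (WT) and 16.1 ± 2.76 TPM (DKO), Shox2 1.12 ± 0.352 and 1.29 ± 0.549 TPM. Cacna1d averaged 2.09 ± 0.762 (WT) and 2.99 ± 0.107 TPM (DKO). Tbx3, Shox2 and Cacna1d did not pass the test. Of the 7, 5 were at 1 TPM or more in each library, and Isl1 stayed under 1 TPM in all 6. The part of atrial and conduction tissue in the values of Kcnj3 and Kcnj5 was not tested.

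Kcnj2 encodes Kir2.1, the main pore of ventricular IK1, whose human gene is mutated in Andersen-Tawil syndrome; it lies on chromosome 11 (111066164 to 111076825). It had 46.7, 57.0 and 40.9 TPM in WT 4, WT 5 and WT 6, and 52.0, 35.8 and 53.8 TPM in DKO 7, DKO 8 and DKO 9. The groups overlapped, with DKO 8 again the lowest library and WT 5 the highest. The means were 48.2 ± 8.13 and 47.2 ± 9.95 TPM, with a log2 difference of -0.04 (limma, SE 0.19, 95% interval -0.48 to 0.40, BH adjusted p = 0.924), an interval that holds differences as large as -0.48. The sign of this difference turned to positive without DKO 8 (0.15), without WT 5 (0.09), with array weights (0.019) or with the term for Y-linked transcripts (0.17), none of them called.

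Kcnj12 encodes Kir2.2, which joins Kir2.1 in mixed channels, and lies on the same chromosome (61022564 to 61073269). It had 22.9, 24.9 and 21.7 TPM in WT 4, WT 5 and WT 6, and 23.4, 29.7 and 26.1 TPM in DKO 7, DKO 8 and DKO 9. DKO 8 was the highest, and DKO 7 lay inside the WT range; the log2 difference was 0.17 (limma, SE 0.11, 95% interval -0.09 to 0.44, BH adjusted p = 0.381) and was 0.17 with the term for Y-linked transcripts as well. Kcnj2 held 67.3 ± 2.14% of the summed TPM of both IK1 genes in WT and 63.7 ± 7.85% in DKO (exact permutation p = 0.7), where DKO 8 had 54.7% against 69.0% and 67.4% in DKO 7 and DKO 9. Their sum was 71.4 ± 9.75 in WT and 73.6 ± 7.42 TPM in DKO.

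In WT hearts the levels ran from Abcc9, at 228 TPM above 96.2% of all genes tested, through Kcnj11 (100.0), Kcnj3 (60.7), Kcnj5 (50.4), Kcnj2 (48.2), Kcnj8 (35.2) and Abcc8 (24.1) to Kcnj12 (23.2). Kcnj5 and Kcnj2, and Abcc8 and Kcnj12, overlapped between libraries, while each other neighbour in that order was separate. In DKO hearts Abcc9 (143) and Kcnj11 (76.2) again stood first and apart. Kcnj5 (55.3), Kcnj2 (47.2) and Kcnj3 (45.4) then overlapped in turn, as did Kcnj12 (26.4), Abcc8 (25.2) and Kcnj8 (23.2). Kcnj8 exceeded Abcc8 in 3 of 3 WT libraries and lay below it in 3 of 3 DKO libraries.

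The remaining inward rectifier genes were mostly near the floor of the table. Of 9 others, 7 (Kcnj1, Kcnj4, Kcnj6, Kcnj9, Kcnj10, Kcnj13 and Kcnj16) stayed at or under 0.876 TPM in every library and were not tested, and of the 2 tested 0 were called by limma and 0 had an unadjusted p under 0.05. Kcnj14, the pore Kir2.4, was 29.5, 0.557 and 1.36 TPM in WT 4, WT 5 and WT 6, and 36.9, 21.2 and 20.4 TPM in DKO 7, DKO 8 and DKO 9. WT 4 stood with the DKO libraries, and the log2 difference of 2.44 (limma, SE 1.05, BH adjusted p = 0.194) became 3.77 without WT 4 (limma, BH adjusted p = 0.00815). Kcnj15, the pore Kir4.2, was 1.16 ± 0.207 and 1.58 ± 0.377 TPM.

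In the other lists of genes around the channels, 13 genes were called in all. With the term for Y-linked transcripts 2 of these 13 calls were left, Ckmt2 and Ak4; in the libraries with Y-linked transcripts alone 1, Ckmt2; and with replicate 7 as WT 0.

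Upstream of the Kcnj3 and Kcnj5 channel, 3 of 24 tested receptor, G-protein and regulator genes were higher and 0 lower (12.5%, against 10.7% of all genes), with a median log2 difference of 0.10. Adora1, the adenosine A1 receptor that opens this channel, rose from 5.84 ± 1.49 to 16.4 ± 2.43 TPM (log2 difference 1.36; limma, BH adjusted p = 0.01; 0.077 with the term for Y-linked transcripts and 0.501 with replicate 7 as WT). Rgs6, which speeds the closing of the channel by hastening GTP hydrolysis, rose from 10.5 ± 1.09 to 21.6 ± 2.39 TPM, and the receptor kinase Grk5 from 31.5 ± 6.43 to 61.2 ± 6.63 TPM. The call of Grk5 was lost without DKO 8 or DKO 9 (limma, BH adjusted p = 0.0655 and 0.0545). The G-protein subunit Gng5 averaged 279 ± 10.7 (WT) and 338 ± 24.2 TPM (DKO; limma, BH adjusted p = 0.0576). Chrm2, the muscarinic receptor of the heart, added for its role after its values were seen, was 119 ± 15.7 and 89.8 ± 13.5 TPM (limma, BH adjusted p = 0.117).

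All inward rectifiers need the membrane lipid PIP2 to open. Of 18 tested enzymes of phosphoinositide and inositol phosphate turnover, 1 was higher and 0 lower (5.56%), with a median log2 difference of 0.00. Pip5k1b, a kinase that makes PIP2, rose from 32.0 ± 2.25 to 45.0 ± 1.14 TPM (limma, BH adjusted p = 0.0162; lost in 4 of 6 fits that left out 1 library, up to 0.0556). The inositol phosphate phosphatase Inpp5a was 235 ± 22.9 and 308 ± 33.8 TPM. Synj2 was 65.8 ± 5.36 and 51.5 ± 7.96 TPM, and Ocrl 11.8 ± 0.310 and 9.89 ± 0.543 TPM. None of these was called.

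Among 19 tested scaffold, anchoring and trafficking partners, 2 were higher and 1 lower (15.8%), with a median of 0.00. Caveolin Cav3, which shapes the caveolae of muscle membrane, rose from 64.0 ± 5.93 to 81.4 ± 1.91 TPM. Ywhae, a 14-3-3 protein, rose from 366 ± 2.82 to 423 ± 7.59 TPM. Cav1, a caveolin abundant in endothelium, fell from 226 ± 21.2 to 171 ± 13.3 TPM. These 3 calls were weak: without 1 library Cav1 and Cav3 were each called in 1 of 6 fits and Ywhae in 0. Ehd2, a caveolar ATPase, was 108 ± 10.4 and 82.8 ± 7.25 TPM (limma, BH adjusted p = 0.053).

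KATP channels read the ATP and ADP that adenylate and creatine kinases pass along. The list held 7 such kinases and 3 enzymes of glycolysis and lactate, Ldha, Ldhb and Gapdh; of the 10, 3 were lower and 1 higher (40.0%), with a median of -0.09, and the 4 called were kinases. The creatine kinase of mitochondria, Ckmt2, fell from 2153 ± 121 to 396 ± 35.4 TPM (log2 difference -2.44; limma, BH adjusted p = 2.37e-04) and the mitochondrial adenylate kinase Ak4 from 23.8 ± 0.500 to 8.13 ± 1.33 TPM. The cytosolic adenylate kinase Ak1 fell from 546 ± 13.0 to 431 ± 37.3 TPM, a call lost in 5 of 6 fits that left out 1 library (limma, BH adjusted p up to 0.0984). The brain-type creatine kinase Ckb rose from 51.9 ± 3.83 to 80.0 ± 2.20 TPM, and Ckmt2, Ak4 and Ckb stayed called in each of those fits.

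Of 14 protein kinase genes that act on KATP channels, 1 was higher and 1 lower (14.3%), with a median of 0.02. The AMP-activated kinase subunit Prkab2 fell from 42.3 ± 3.99 to 25.5 ± 1.04 TPM (limma, BH adjusted p = 0.00785) and stayed called in 6 of 6 fits that left out 1 library, but not with the term for Y-linked transcripts (0.116) or with replicate 7 as WT (0.501). Protein kinase C delta (Prkcd) rose from 14.3 ± 1.36 to 24.1 ± 5.46 TPM and was called in 0 of these 6. The protein kinase A subunits Prkaca (265 ± 6.82 and 310 ± 9.19 TPM) and Prkar1a (370 ± 37.9 and 458 ± 17.7 TPM) did not pass.

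**Figure D4:**
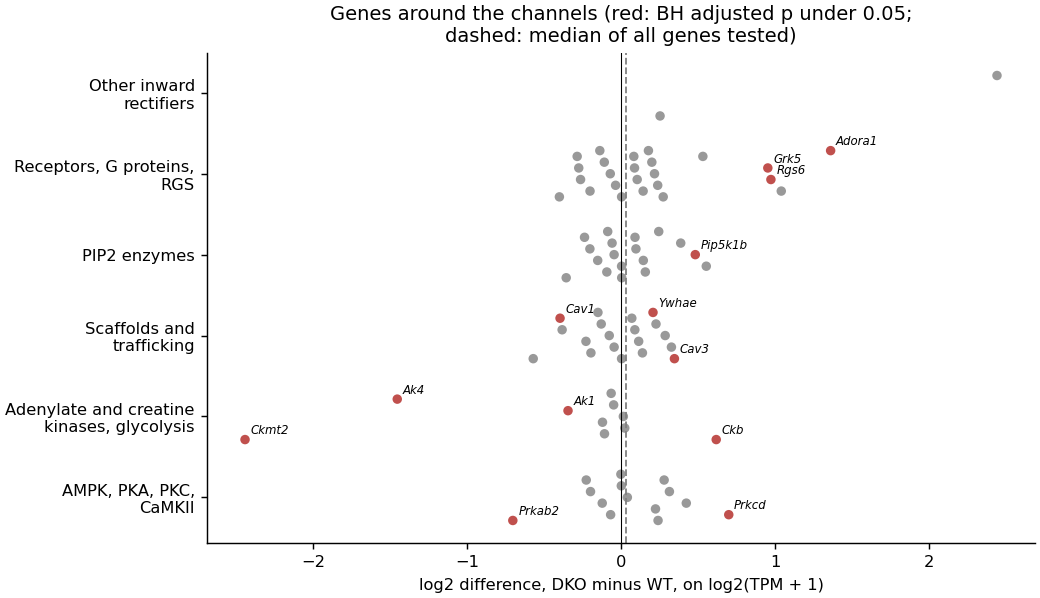
Log2 difference, DKO minus WT, of each tested gene in the 6 lists of genes around the channels (red and named, BH adjusted p under 0.05 with limma; dashed, median of all genes tested, 0.03; vertical scatter within a list has no meaning). Called genes range from Ckmt2 at -2.44 to Adora1 at 1.36, and the uncalled point at 2.44 is Kcnj14.

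The genes whose levels ran most alike were sought among 13089 tested genes by Pearson correlation of log2(TPM + 1) over the 6 libraries, which share the 2 groups, so that any gene lower in DKO resembles Abcc9. For Abcc9 they were Lpcat3, a phospholipid acyltransferase (r = 0.999; 32.8 ± 0.892 in WT and 22.4 ± 0.788 TPM in DKO), Trip6 (0.998) and the kinase Gsk3a (0.996), and 247 genes reached 0.95 or more. For Kcnj8 they were the nuclear import factor Kpna1 (r = 0.996; 92.4 ± 8.49 and 69.5 ± 1.51 TPM), Mrpl20 (0.992) and Josd2 (0.990), with 149 genes at 0.95 or more. The other 6 genes had between 14 and 42 such genes each. Among the highest were Bach2 for Kcnj2 (0.982), Sparcl1 for Kcnj12 (0.989), B3glct for Kcnj3 (0.979), Scaf4 for Kcnj5 (0.993) and Ipmk for Kcnj11 (0.988).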

How the data were processed

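Per the submitters' processing notes, reads were handled with bcl2fastq and kallisto 0.44.0 on mm10; the annotation, and how transcripts were summed, is not given in the sources used here. The authors deposited TPM values, 1 per gene and library, with replicates not pooled; TPM divides by length and library total, so abundant RNAs shift all other values. Groups follow titles. Where 3 or more libraries reached 1 TPM, a gene was tested by limma 3.58.1 (trend) in R 4.3.3 on log2(TPM + 1), which understates changes of low genes, with BH adjustment over all 14541 genes and a threshold of 0.05. Exact two-sided permutation tests (scipy 1.17.1) were used for ratios. The fit was tested on simulated data. Positions and upstream windows are from RefSeq tables of GRCm38.p6. The genes and lists were chosen with earlier results of these data known. Named are the 8 genes, in each list the 4 genes with the lowest p, the genes most alike (3 sought per gene), Mbnl1 and Mbnl2; Chrm2, the genes near the KATP pairs and the cell type markers described with values are outside that rule; the gene most like Abcc8 and 1 marker each of the neuronal and conduction lists are not reported here. The 17 alternatives are given in the closing section. Figures used matplotlib 3.10.9.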

Additional observations from a re-analysis of the deposited data

How the results depend on the processing

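No paired analysis was possible because the groups share no replicate numbers. The 1560 genes called became 1 with replicate 7 as WT, 92 with a term for Y-linked transcripts, 12 with the libraries with Y-linked transcripts alone, which hold 1 DKO library assumed to vary like the others, and 622 to 877 without 1 library. Of the channel genes, 2 called became 0 in each of the first 3 settings and 1 to 2 without 1 library. The 13 called list genes became 0, 2 and 1 in those 3 settings, 8 without trend and 6 to 10 without 1 library. In the libraries with Y-linked transcripts alone Abcc9 was -0.64 (limma, BH adjusted p = 0.109) and Kcnj8 -0.63 (0.203). Kcnj2 turned positive with array weights (0.019), the Y-linked term (0.17), those libraries alone (0.17), and without WT 5 (0.09) or DKO 8 (0.15), and without 1 library it ranged from -0.15 to 0.15. The Kcnj2 to Kcnj12 log2 ratio difference ranged from -0.39 to 0.056 without 1 library, positive without DKO 8, and the Kcnj2 share difference from -6.31 to 0.860 percentage points. Abcc9 kept its direction in all 17 alternatives and its call in 14, Kcnj8 in 17 and 10; the differences of Kcnj3, Kcnj5, Kcnj11, Kcnj12 and Abcc8 kept their sign in all 17 and were called in none. The cause of the changes was not tested; settings without a library have fewer samples. Depth is unknown from TPM, and 3 libraries per group limit the precision.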
